A study of Homo sapiens with 9 samples.

Results

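XIAP, BIRC2, BIRC6, DIABLO, HTRA2, CASP2, CASP8 and CASP9, which are inhibitors of apoptosis, their mitochondrial antagonists and initiator caspases, were examined as a set of 8 genes chosen by name among the 27615 genes of the longest gene list. They were measured by RNA sequencing of MDA-MB-231 cells, an established human triple-negative breast cancer line, 3 libraries each for DMSO as vehicle, for rimonabant and for TXX-1-10. Rimonabant blocks the CB1 cannabinoid receptor and is the parent compound of TXX-1-10. The cells carry no engineered change according to the labels, and the dose and duration of treatment before sequencing are not given in the sources used here. Nor do the labels say whether the 3 libraries of a treatment came from separate cultures, so p-values measure the spread between these libraries, which may be technical.

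Caspases are proteases that are made as inactive precursors, and many of them carry out apoptosis once they are activated. Caspase-8 is activated at death receptors, caspase-9 on the apoptosome after cytochrome c leaves mitochondria, and caspase-2 on a complex around PIDD1. XIAP binds and blocks caspases, BIRC2 (cIAP1) is a ubiquitin ligase of the TNF receptor complex, and DIABLO (Smac) and HTRA2 (Omi) are mitochondrial proteins that displace caspases from the inhibitors when released. All of these steps act on proteins, whereas the values here are amounts of RNA.

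Levels are given as FPKM, the reads of a gene divided by its length and by a total for the library. The library totals behind these values were 17078370 to 17245379 for vehicle, 17477838 to 18813662 for rimonabant and 18394759 to 19277808 for TXX-1-10. These totals are not plain sums of reads. The listed counts came to 17492638 in vehicle replicate 1 and 17383157 in vehicle replicate 3, above their totals of 17078370 and 17221591. In all other libraries they were below the total. How the totals were made is not given in the sources used here, and its part in small differences was not tested. The gene lists end at different points of a common order, so XIAP, BIRC2 and BIRC6 were listed for all 9 libraries, HTRA2, CASP2 and CASP8 for 8, and DIABLO and CASP9 for 7. Rimonabant replicate 1 and TXX-1-10 replicate 3 stood apart: their counts fell with gene length relative to the other replicates (Spearman rho -0.69 in each, across 4237 genes, which are not independent), so results are also given without both. Markers of the line were present, with VIM at 224 to 329 FPKM, while in the lists that hold them ESR1 stayed at or below 0.031, PTPRC at or below 0.064 and COL1A2 at or below 0.0105 FPKM. Of the markers of other cells, CD14 (0.229 to 0.554 FPKM) and COL1A1 (0.310 to 0.798 FPKM) were highest. KRT8 (34.1 to 69.1 FPKM), ERBB2 (6.996 to 9.52 FPKM), EPCAM (4.47 to 5.37 FPKM) and GATA3 (0.396 to 1.45 FPKM) were detected. All of these are listed as low or absent in this class of line.

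In vehicle-treated cells BIRC2 had the highest level of the 8 genes, 60.2 ± 2.76 FPKM (SD, n = 3), followed by HTRA2 at 10.3 ± 0.588, BIRC6 at 6.73 ± 0.0977 and CASP2 at 5.95 ± 0.203 FPKM. XIAP (5.04 ± 0.244 FPKM) and CASP8 (4.70 ± 0.310 FPKM) came next, and their ranges over the libraries overlapped, so their order is not resolved. CASP9 at 1.31 ± 0.0938 FPKM and DIABLO at 0.646 ± 0.0647 FPKM (n = 2 for both) were lowest. With TXX-1-10, XIAP stood at 11.7 ± 1.14 FPKM (n = 3) and overlapped with HTRA2 at 11.9 ± 1.19 FPKM, below BIRC2 alone at 37.3 ± 2.21 FPKM. BIRC6, CASP2 and CASP8, next in that order, overlapped each with its neighbour.

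**Figure D1:**
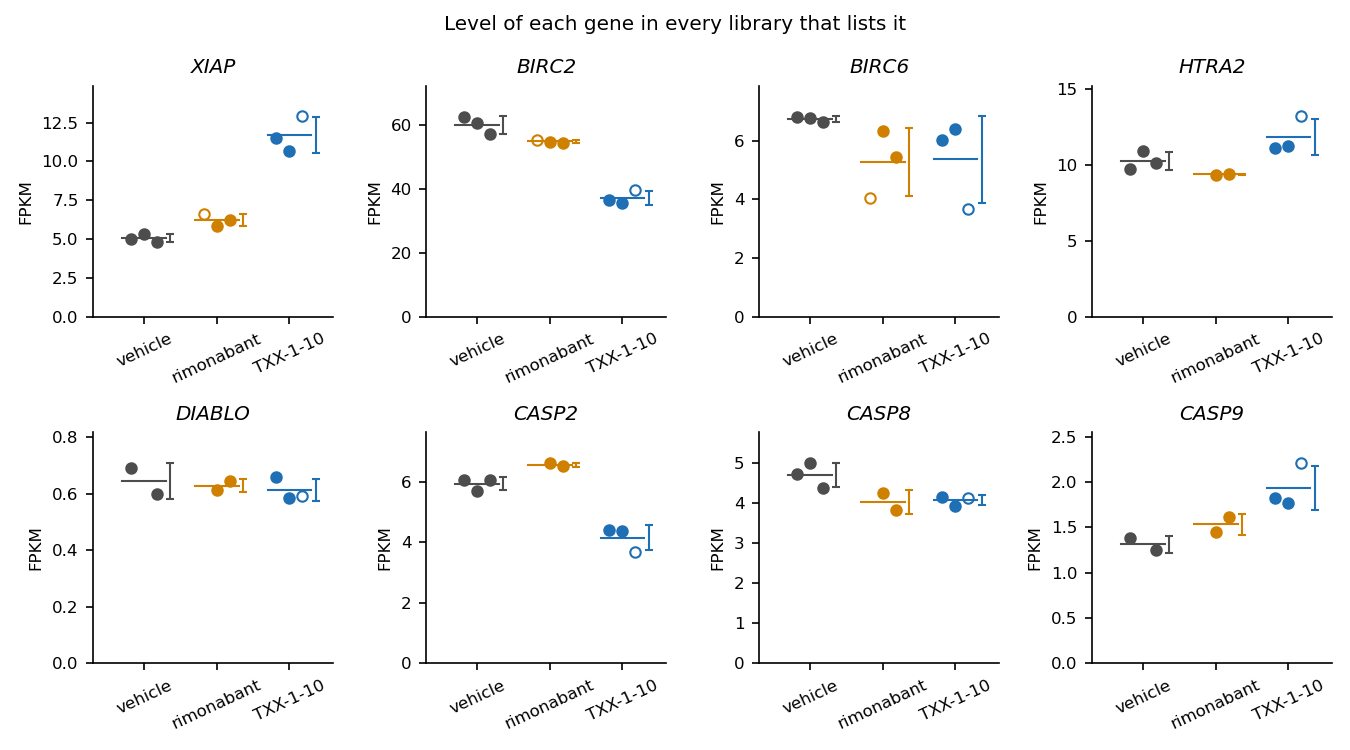
FPKM (vertical axis, from 0) of each of the 8 genes in every library that lists it, by treatment. Points are libraries, open points are rimonabant replicate 1 and TXX-1-10 replicate 3, horizontal lines are means and bars are the SD. XIAP rises from 5.04 to 11.7 FPKM and BIRC2 falls from 60.2 to 37.3 FPKM between vehicle and TXX-1-10.

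XIAP and BIRC2 gave the largest rise and fall against vehicle, and the sequences around their start sites are printed for that reason. Each line holds 250 bases before and 50 bases from the start site of the RefSeq gene (GRCh38.p14, plus strand), chrX:123859458-123859757 for XIAP and chr11:102346964-102347263 for BIRC2, with matches of the motifs searched in capitals.
XIAP: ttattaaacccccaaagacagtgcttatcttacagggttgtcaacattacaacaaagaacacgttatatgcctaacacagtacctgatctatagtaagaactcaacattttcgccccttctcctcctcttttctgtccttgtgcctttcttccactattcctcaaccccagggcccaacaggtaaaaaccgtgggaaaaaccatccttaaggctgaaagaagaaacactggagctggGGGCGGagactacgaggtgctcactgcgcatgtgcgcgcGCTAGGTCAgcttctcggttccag
BIRC2: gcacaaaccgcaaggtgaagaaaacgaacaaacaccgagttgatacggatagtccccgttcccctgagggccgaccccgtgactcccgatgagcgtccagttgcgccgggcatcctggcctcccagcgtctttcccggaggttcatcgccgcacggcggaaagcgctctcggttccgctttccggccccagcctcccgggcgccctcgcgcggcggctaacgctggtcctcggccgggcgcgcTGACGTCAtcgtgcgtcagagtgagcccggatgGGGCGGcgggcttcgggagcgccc
Searched on both strands were the cAMP response element TGACGTCA, the antioxidant response element core TGACNNNGC, the CEBP-ATF element TGATGNAA, the GC box GGGCGG and the CCAAT box. BIRC2 held TGACGTCA beginning 7 bases before the start site, a match found in 1.84% of 34943 promoter windows of this length. XIAP held the antioxidant core on the minus strand (printed as GCTAGGTCA) from base 27 of the transcript, as did 13.3% of windows somewhere within them. Both held 1 GC box, where 44.9% of windows held at least 1, and neither held the CEBP-ATF element (3.62% of windows) or a CCAAT box (34.6%). The marked matches do not overlap each other. A match describes the letters and is not evidence of binding.

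XIAP (ENSG00000101966, GRCh38 chrX:123859724-123913979) was at 5.002, 5.31 and 4.83 FPKM in the 3 vehicle libraries, from 771, 826 and 750 reads. It was at 6.58, 5.84 and 6.20 FPKM with rimonabant (1038, 991 and 1037 reads) and at 11.5, 10.7 and 12.9 FPKM with TXX-1-10 (1998, 1771 and 2146 reads). The 3 groups did not overlap, with every rimonabant library above every vehicle library and every TXX-1-10 library above both. Against vehicle, XIAP rose with TXX-1-10 by a log2 fold change of 1.21 ± 0.08 (SE; edgeR adjusted p = 2.88e-07) and with rimonabant by 0.30 ± 0.08 (edgeR adjusted p = 0.0116). The direct comparison of the compounds gave 0.91 ± 0.08, higher with TXX-1-10 (edgeR adjusted p = 4.02e-06, 95% interval 0.74 to 1.09). In bulk RNA a change in level per cell and a change in the mix of cells cannot be told apart. Without rimonabant replicate 1 and TXX-1-10 replicate 3 the values were 1.13, 0.25 and 0.88, all still past the threshold.

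XIAP is a long gene by its exonic bases (9025 in the lists, more than in 78.3% of the 4236 genes tested on all 9 libraries). In TXX-1-10 replicate 3, where long genes were low, it had its highest value of all 9 libraries. Of the 50-base windows of its annotated transcripts, 4.37% occur in transcripts of another annotated gene, most often in the pseudogene XIAPP1 (1.51%). Across the 9 libraries the genes most like XIAP among 4155 genes compared were RNF187 (Pearson r 0.995), OPTN (0.994) and OSER1 (0.993), on log2(FPKM + 0.1). These 9 points fall into the 3 treatments, so the coefficients describe that shared grouping.

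BIRC2 (ENSG00000110330, chr11:102347211-102378670) went the opposite way to XIAP. Its levels were 62.7, 60.6 and 57.2 FPKM in vehicle (4853, 4740 and 4467 reads), 55.4, 54.9 and 54.5 FPKM with rimonabant (4392, 4684 and 4579 reads) and 36.4, 35.6 and 39.8 FPKM with TXX-1-10 (3184, 2971 and 3320 reads). All TXX-1-10 libraries lay below all others, and the rimonabant libraries lay below the vehicle libraries by a narrow margin. With TXX-1-10 BIRC2 fell by 0.69 ± 0.05 on the log2 scale against vehicle (edgeR adjusted p = 1.20e-06) and by 0.56 ± 0.05 against rimonabant (edgeR adjusted p = 1.05e-05, 95% interval -0.68 to -0.44). Rimonabant against vehicle gave -0.13 ± 0.05 (edgeR adjusted p = 0.0696, 95% interval -0.25 to -0.01), which did not pass. That value passed when either vehicle replicate 3 (-0.17, edgeR adjusted p = 0.0483) or TXX-1-10 replicate 3 (-0.13, edgeR adjusted p = 0.0306) was left out. It also passed with DESeq2 (-0.12, adjusted p = 0.0240), with the length correction (-0.13, edgeR adjusted p = 0.0166) and without rimonabant replicate 1 and TXX-1-10 replicate 3 together (-0.14, edgeR adjusted p = 0.00574).

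Since XIAP rose while BIRC2 fell, their ratio moved further than either gene. BIRC2 exceeded XIAP by a ratio of 12.5, 11.4 and 11.9 in the vehicle libraries, 8.43, 9.41 and 8.79 with rimonabant and 3.17, 3.34 and 3.08 with TXX-1-10, and the groups did not overlap. The summed FPKM of the 5 inhibitors listed for every library (XIAP, BIRC2, BIRC3, BIRC5 and BIRC6) was 129.6 ± 5.10 in vehicle, 107.5 ± 1.02 with rimonabant and 71.7 ± 2.79 with TXX-1-10 (SD, n = 3 each). XIAP made up 3.90% ± 0.181 of this sum in vehicle, 5.77% ± 0.291 with rimonabant and 16.3% ± 0.951 with TXX-1-10. BIRC2 held 46.4%, 51.1% and 52.0% of it and BIRC6 5.20%, 4.91% and 7.54%. The shares of BIRC3 (21.0%, 16.1% and 9.56%) and of BIRC5 (23.4%, 22.0% and 14.6%) became smaller. These sums were chosen after the values were seen and carry no test.

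**Figure D2:**
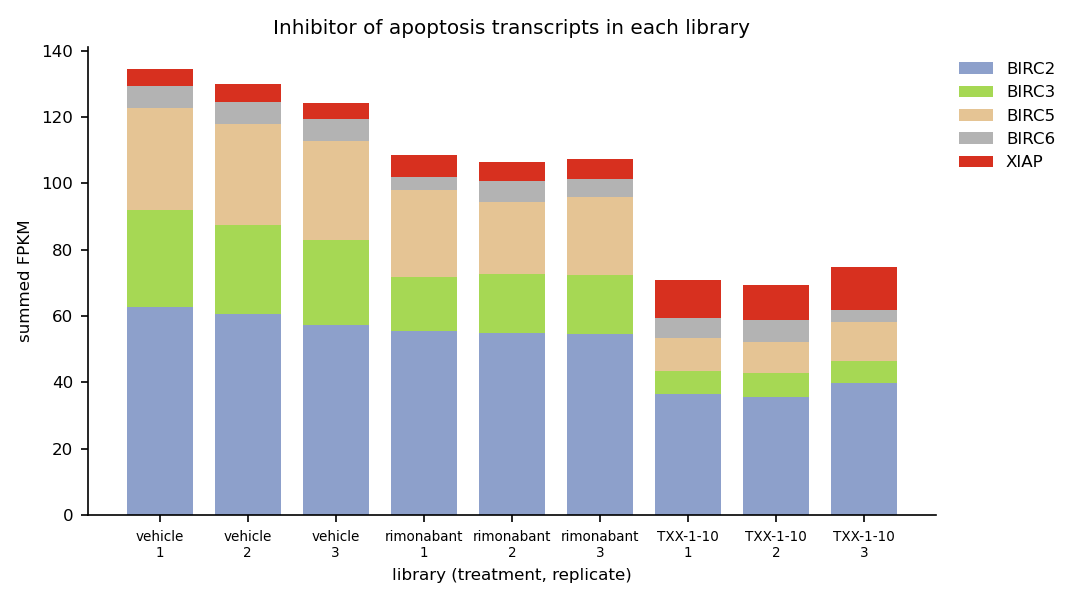
Summed FPKM (vertical axis) of 5 inhibitor of apoptosis genes in each of the 9 libraries, stacked by gene. The bars shrink from a mean of 129.6 in vehicle to 71.7 with TXX-1-10 while the XIAP segment widens from 3.90% to 16.3%.

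BIRC6 (ENSG00000115760, chr2:32357028-32618899), a giant inhibitor that joins ubiquitin to caspases and other targets, did not differ between treatments by the test. It was at 6.80, 6.77 and 6.62 FPKM in vehicle, 4.02, 6.33 and 5.45 FPKM with rimonabant and 6.03, 6.38 and 3.67 FPKM with TXX-1-10. The 2 lowest values were those of rimonabant replicate 1 and TXX-1-10 replicate 3. Its exons cover 17858 bases, more than in 97.9% of the 4236 genes tested on all 9 libraries. With a correction for gene length the differences from vehicle were -0.24 with TXX-1-10 and -0.21 with rimonabant. None of its 3 comparisons passed. TXX-1-10 against vehicle gave -0.33 ± 0.20 (edgeR adjusted p = 0.162), rimonabant against vehicle -0.35 ± 0.20 (edgeR adjusted p = 0.173), and TXX-1-10 against rimonabant 0.02 ± 0.20 (edgeR adjusted p = 0.926, 95% interval -0.42 to 0.47). Without both of those libraries BIRC6 was lower than vehicle by a smaller margin that passed, at -0.12 ± 0.05 with TXX-1-10 (edgeR adjusted p = 0.0437) and -0.19 ± 0.05 with rimonabant (edgeR adjusted p = 0.00294), and without TXX-1-10 replicate 3 alone rimonabant gave -0.35 (edgeR adjusted p = 0.0344). The rimonabant value also passed with only the 2 groups compared (-0.35, edgeR adjusted p = 0.0484) and with quantile normalization (-0.33, limma adjusted p = 0.0246).

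Among the antagonists, HTRA2 (ENSG00000115317, chr2:74529377-74533348), a serine protease of the mitochondrial intermembrane space, was at 9.74, 10.9 and 10.2 FPKM in vehicle, 9.37 and 9.42 FPKM in the 2 rimonabant libraries that list it, and 11.1, 11.2 and 13.2 FPKM with TXX-1-10. The TXX-1-10 libraries lay above all others, with replicate 3 highest. Against vehicle HTRA2 rose by 0.21 ± 0.08 with TXX-1-10 (edgeR adjusted p = 0.0326) and was at -0.13 ± 0.09 with rimonabant (edgeR adjusted p = 0.276). Between the compounds it was higher with TXX-1-10 by 0.34 ± 0.09 (edgeR adjusted p = 0.00669, 95% interval 0.14 to 0.53). The difference from vehicle no longer passed without TXX-1-10 replicate 3 (0.12, edgeR adjusted p = 0.110), vehicle replicate 1 (0.17, edgeR adjusted p = 0.118) or vehicle replicate 3 (0.20, edgeR adjusted p = 0.0826). HTRA2 shares 36.9% of its exonic bases with genes on the opposite strand, 483 with AUP1 and 625 with LOXL3, and how reads in shared bases were counted is not given in the sources used here. AUP1 rose with TXX-1-10 by 0.44 (edgeR adjusted p = 0.000174), and its part in the HTRA2 value was not tested.

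DIABLO (ENSG00000184047, chr12:122207663-122226568) had the lowest level, at 0.692 and 0.600 FPKM in vehicle, 0.612 and 0.645 FPKM with rimonabant and 0.659, 0.586 and 0.594 FPKM with TXX-1-10, from 70 to 86 reads per library. Its groups overlapped throughout, and at a mean under 1 FPKM it was not among the genes tested. A fit with no minimum level gave -0.07 ± 0.16 for TXX-1-10 against vehicle (edgeR adjusted p = 0.692, 95% interval -0.42 to 0.27), -0.04 ± 0.17 for rimonabant against vehicle (edgeR adjusted p = 0.877) and -0.04 ± 0.16 between the compounds (edgeR adjusted p = 0.862). A change within that interval was not detectable at this depth. The symbol has a second, overlapping record (ENSG00000284934), which held 0, 0, 0 and 2 reads in the 4 libraries that list it, where a count of 0 allows up to 3 reads. Of the exonic bases of the main record 30.4% lie in other annotated genes, including that record, AC048338.1 on the same strand and B3GNT4 on the opposite strand. How reads in these shared bases were counted is not given in the sources used here. The level of DIABLO and ratios to it may depend on that, which was not tested. CASP9 shares 2.0% of its exonic bases with CELA2B and BIRC6 0.27% with BIRC6-AS1. Over DIABLO, XIAP stood at ratios of 7.23 and 8.04 in vehicle, 9.54 and 9.61 with rimonabant and 17.4, 18.2 and 21.8 with TXX-1-10, and over HTRA2 at 0.475 to 0.514, 0.623 to 0.658 and 0.948 to 1.03.

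Of the initiator caspases, CASP2 (ENSG00000106144, chr7:143288215-143307696) fell, CASP8 was slightly lower and CASP9 rose with TXX-1-10. CASP2 was at 6.07, 5.72 and 6.07 FPKM in vehicle, 6.63 and 6.52 FPKM with rimonabant and 4.41, 4.39 and 3.67 FPKM with TXX-1-10. The TXX-1-10 libraries were below all others and the rimonabant libraries above all others. CASP2 fell with TXX-1-10 by 0.52 ± 0.07 against vehicle (edgeR adjusted p = 4.19e-05) and by 0.66 ± 0.08 against rimonabant (edgeR adjusted p = 2.10e-05, 95% interval -0.84 to -0.48). Rimonabant against vehicle gave 0.14 ± 0.08 (edgeR adjusted p = 0.163), which passed without TXX-1-10 replicate 3 (0.14, edgeR adjusted p = 0.0355) and with only the 2 groups compared (0.14, edgeR adjusted p = 0.0438).

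CASP8 (ENSG00000064012, chr2:201233443-201287711) was at 4.72, 5.004 and 4.39 FPKM in vehicle, 4.24 and 3.82 FPKM with rimonabant and 4.16, 3.93 and 4.12 FPKM with TXX-1-10. Both compounds lay just below the lowest vehicle library and overlapped each other. The values against vehicle were -0.21 ± 0.07 with TXX-1-10 (edgeR adjusted p = 0.0212) and -0.22 ± 0.08 with rimonabant (edgeR adjusted p = 0.0422). Between the compounds the difference was 0.01 ± 0.08 (edgeR adjusted p = 0.887, 95% interval -0.16 to 0.19), which bounds it but does not show that they act alike. The TXX-1-10 call was lost without vehicle replicate 1 (edgeR adjusted p = 0.0541), vehicle replicate 2 (0.102) or TXX-1-10 replicate 2 (0.0650), and with TMM factors (0.0638). DESeq2 lost both calls, with adjusted p = 0.0968 for TXX-1-10 and 0.0612 for rimonabant. The rimonabant call was lost without vehicle replicate 1 (edgeR adjusted p = 0.0908), vehicle replicate 2 (0.150), rimonabant replicate 2 (0.0526), rimonabant replicate 3 (0.3004) or TXX-1-10 replicate 1 (0.0555). Relative to CFLAR, its catalytically inactive paralog at death receptors, CASP8 stood at 1.55 to 1.68 in vehicle, 1.43 to 1.66 with rimonabant and 1.51 to 1.63 with TXX-1-10, which overlap.

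CASP9 (ENSG00000132906, chr1:15490832-15526534), the caspase of the apoptosome, was at 1.38 and 1.25 FPKM in vehicle, 1.45 and 1.62 FPKM with rimonabant and 1.82, 1.77 and 2.22 FPKM with TXX-1-10, from 113 to 215 reads. The 3 groups did not overlap. With TXX-1-10 CASP9 rose by 0.56 ± 0.15 against vehicle (edgeR adjusted p = 0.00476), a call lost without vehicle replicate 3 (0.49, edgeR adjusted p = 0.0530), where 1 vehicle library is left and is assumed to vary like the other groups. Rimonabant against vehicle gave 0.23 ± 0.16 (edgeR adjusted p = 0.295). Between the compounds the difference was 0.33 ± 0.14 (edgeR adjusted p = 0.0616, 95% interval 0.03 to 0.64), which did not pass, but did without TXX-1-10 replicate 2 (0.39, edgeR adjusted p = 0.0469), with TMM factors (0.36, edgeR adjusted p = 0.0387), with the length correction (0.37, edgeR adjusted p = 0.0324) and with quantile normalization (0.24, limma adjusted p = 0.0368), 4 of 18 alternatives. Within the summed FPKM of the 3 initiator caspases, CASP9 accounted for 10.6% and 11.3% in vehicle, 11.8% and 13.5% with rimonabant and 17.5%, 17.6% and 22.2% with TXX-1-10.

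Counted together, 6 of the 7 genes tested differed between TXX-1-10 and vehicle, where 71.7% of all 11203 genes tested differed. Of them 3 were higher (XIAP, HTRA2 and CASP9), as 34.1% of all genes were, and 3 lower (BIRC2, CASP2 and CASP8), as 37.6% were. XIAP was the 1 gene that passed 2-fold, as 14.0% of all genes did. Between rimonabant and vehicle 2 of the 7 differed, against 43.1% of all genes, with XIAP higher (22.7% of all genes) and CASP8 lower (20.4%), and 0 passed 2-fold, against 2.10%. Without TXX-1-10 replicate 3 this count was 5, and it was 1 without vehicle replicate 1 or 2, rimonabant replicate 2 or 3, or TXX-1-10 replicate 1. In the 1 direct comparison of the compounds 4 of the 7 differed, against 58.1% of all genes. XIAP and HTRA2 were higher with TXX-1-10 (26.2% of all genes) and BIRC2 and CASP2 lower (31.9%). The median log2 fold change of the 7 was -0.21 for TXX-1-10 and -0.13 for rimonabant against vehicle and 0.02 between the compounds, beside medians of -0.02, 0.01 and -0.02 over all genes. The comparisons with vehicle share its 3 libraries.

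**Figure D3:**
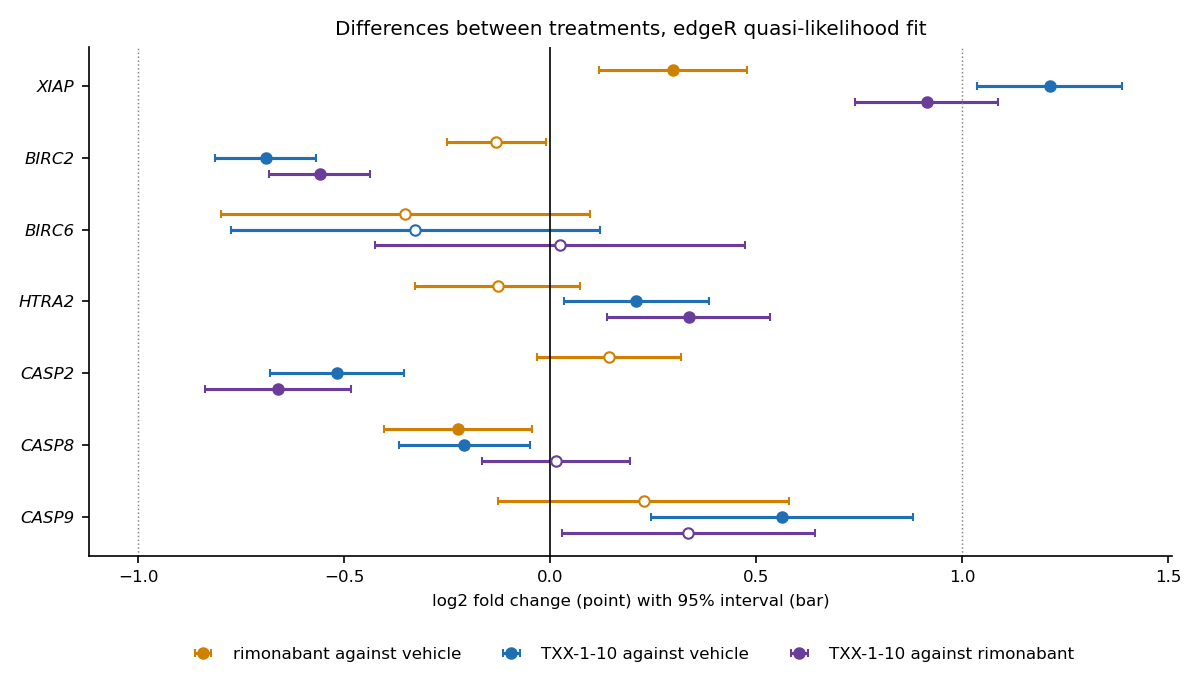
Log2 fold changes (horizontal axis) of the 7 genes tested, with 95% intervals, for the 3 comparisons. Filled points passed an edgeR adjusted p under 0.05, and dotted lines mark 2-fold. XIAP with TXX-1-10 against vehicle, at 1.21, is the 1 filled point past a dotted line.

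Of 47 other genes of the caspase pathway, grouped by role, 35 were tested. With TXX-1-10 28 of the 35 differed from vehicle, where 71.7% of all genes did, 7 of them higher (34.1% of all genes) and 21 lower (37.6%), with a median of -0.25. With rimonabant 20 of the 35 differed, where 43.1% of all genes did, 8 higher (22.7%) and 12 lower (20.4%), with a median of -0.10. Between the compounds 22 differed, where 58.1% of all genes did, 7 higher with TXX-1-10 (26.2%) and 15 lower (31.9%), with a median of -0.13. Past 2-fold against vehicle were 6 genes with TXX-1-10, where 14.0% of all genes were, and 0 with rimonabant, where 2.10% were. Between the compounds 4 of the 35 were past 2-fold, as were 784 of all 11203 genes: BIRC3 (-1.34), BIRC5 (-1.17), PARP1 (-1.48) and LMNB1 (-2.18), all lower with TXX-1-10.

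The other inhibitors tested both fell with each compound, while BIRC2 fell with TXX-1-10 alone. BIRC3 (cIAP2, the close paralog of BIRC2) was at 27.2 ± 1.74 FPKM in vehicle, 17.3 ± 0.801 with rimonabant and 6.84 ± 0.276 with TXX-1-10 (SD, n = 3), log2 fold changes of -0.65 and -1.99. BIRC5 (survivin, which also acts in cell division) was at 30.4 ± 0.486, 23.7 ± 2.27 and 10.5 ± 1.20 FPKM, changes of -0.36 and -1.53. XIAP was thus the 1 inhibitor of the 5 tested that was higher with either compound.

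CASP4, an inflammatory caspase, rose by 0.68 with rimonabant and by 1.03 with TXX-1-10. APAF1, the scaffold on which caspase-9 is activated, rose with rimonabant by 0.47 and fell by 0.38 with TXX-1-10, and the compounds differed by 0.85, lower with TXX-1-10 (edgeR adjusted p = 3.46e-07). CYCS, the gene of cytochrome c, fell by 0.61 with TXX-1-10 and was at -0.02 with rimonabant (edgeR adjusted p = 0.877). CASP9 therefore rose with TXX-1-10 while both apoptosome partners fell.

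Of the 10 genes of death receptor complexes tested, 9 differed from vehicle with TXX-1-10, where 71.7% of all genes did. Of them 3 were higher (34.1% of all genes) and 6 lower (37.6%). With rimonabant 5 of the 10 differed, where 43.1% of all genes did, 3 higher (22.7%) and 2 lower (20.4%). The 3 that rose with TXX-1-10, named after their values were seen, were RIPK1, a kinase of the TNF receptor complex (0.91), TNFRSF10B, a receptor of TRAIL (0.70), and TRADD, an adaptor (0.62), and with rimonabant they rose by 0.60, 0.17 and 0.33. FADD, the adaptor of caspase-8, was at -0.20 with TXX-1-10 (edgeR adjusted p = 0.0338) and -0.18 with rimonabant (edgeR adjusted p = 0.115), and CFLAR fell by 0.18 and 0.20, close in size to CASP8. Among substrates of caspases, PARP1, a DNA repair enzyme, fell from 54.0 ± 0.260 FPKM in vehicle to 49.4 ± 0.717 with rimonabant and 17.7 ± 0.518 with TXX-1-10. The nuclear lamins LMNB1 and LMNB2 fell by 2.50 and 1.06 with TXX-1-10 and by 0.31 and 0.28 with rimonabant. Cleavage of such substrates acts on protein and is not measured by these RNA values.

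**Figure D4:**
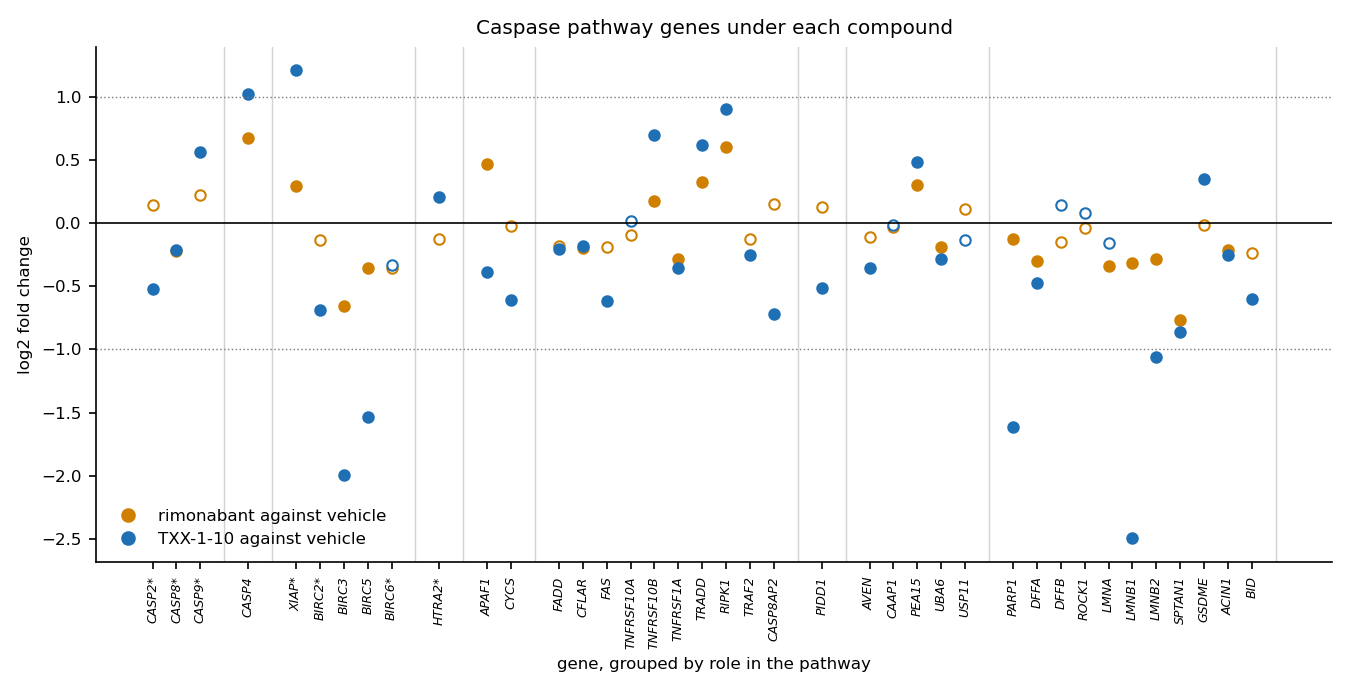
Log2 fold change against vehicle (vertical axis) with rimonabant and with TXX-1-10 for 39 genes tested, grouped by role along the horizontal axis, with the set of 8 marked by an asterisk where tested. Filled points passed an edgeR adjusted p under 0.05. LMNB1 is lowest at -2.50 and XIAP highest at 1.21, both with TXX-1-10.

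**Figure D5:**
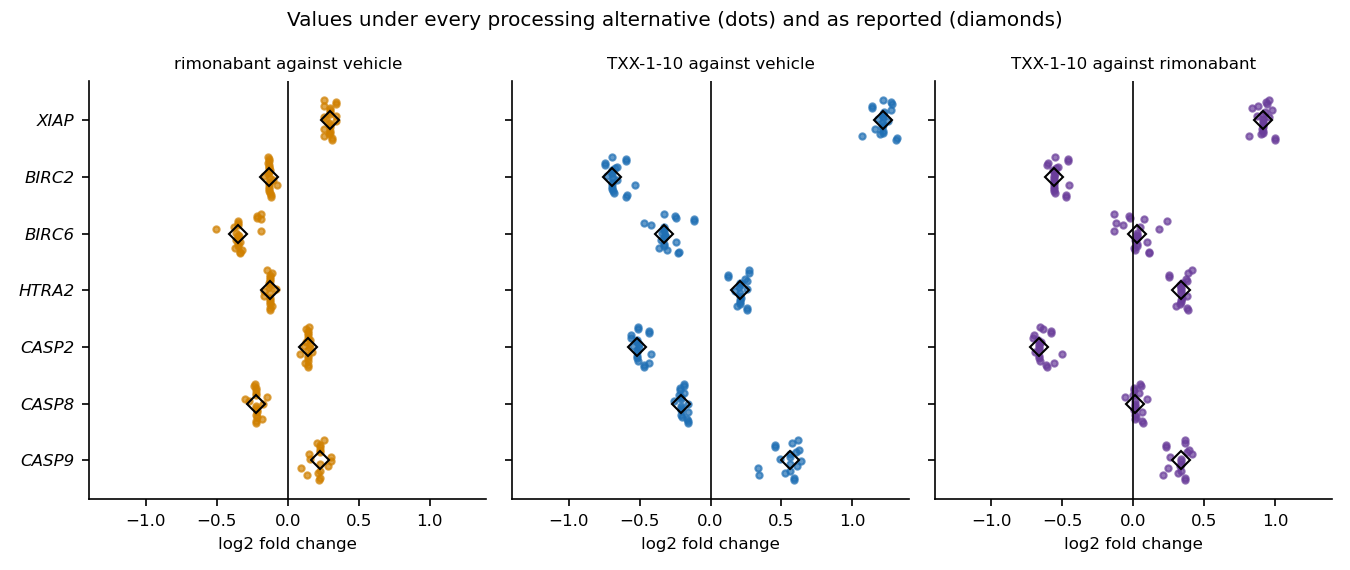
Log2 fold change (horizontal axis) of each of the 7 genes tested under every processing alternative (dots) and as reported (diamonds), in 3 panels for the 3 comparisons. For XIAP with TXX-1-10 against vehicle the values with 1 library left out ran from 1.13 to 1.27, while BIRC6 between the compounds ranged to both sides of 0.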

How the data were processed

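RNA was extracted from MDA-MB-231 cells with Trizol, selected with oligo(dT) and prepared with the NEBNext Ultra kit. The submitters' processing notes name HISAT2 2.0.5 and featureCounts 1.5.0-p3. The authors deposited, for each gene and library, a raw read count and an FPKM value made from it by gene length and a library total, which was recovered and used as library size. The strand setting and the treatment of reads in overlapping genes are not given in the sources used here. A list's incomplete last line was dropped, and a gene missing from a list was not taken as 0.

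Counts were tested with edgeR 4.0.16 in R 4.3.3 (quasi-likelihood test, 3 groups in 1 fit, Benjamini-Hochberg adjustment over all genes of the fit), for genes with a mean of at least 1 FPKM. Each gene was taken from the fit with the most libraries listing it: 9 libraries (4236 genes), 8 without rimonabant replicate 1 (9369 genes) or 7 also without vehicle replicate 2 (11200 genes), 11203 genes in all. "Differed", "rose" and "fell" mean an adjusted p under 0.05, and 2-fold means in addition a log2 fold change of 1 or more in size. Intervals are 95%, and standard errors are approximate. The fits were tested on simulated counts. limma 3.58.1 and DESeq2 1.42.0 were alternatives. The coordinates of the genes are those of GENCODE 29, which gave shared bases and 50-base windows, and promoter sequences came from RefSeq (GRCh38.p14; all 8 genes matched, the window nearest the listed start was used).

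The 8 genes and the pathway list were chosen with earlier results of these data known. Named by rule were the 8 genes, every pathway gene past 2-fold, BIRC3, BIRC5, APAF1, CYCS, CFLAR, FADD and PARP1, genes sharing bases with one of the 8, and for each of the 8 past 2-fold the 3 genes with the highest Pearson r among genes of at least 5 FPKM. Some genes of the pathway list that the rule names are not reported here, though the counts include them. No replicate pair differed by less than sampling noise. Figures were drawn with matplotlib 3.10.9.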

Additional observations from a re-analysis of the deposited data

How the results depend on the processing

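The calls for XIAP, BIRC2 and CASP2 with TXX-1-10 against vehicle and against rimonabant, of XIAP with rimonabant and of HTRA2 between the compounds held under each alternative tried for them. TMM factors, DESeq2, quantile normalization and the length correction moved the median of all genes by at most 0.07. The genes fitted on 9 libraries moved further with TMM factors, to 1.31 for XIAP, -0.59 for BIRC2 and -0.23 for BIRC6 with TXX-1-10 against vehicle. The count of genes that differed between rimonabant and vehicle, 2 of 7, was the least stable: 1 with a mean FPKM of at least 5 (fewer genes tested), 4 with only the 2 groups compared, 5 without rimonabant replicate 1 and TXX-1-10 replicate 3 together, and 1 to 5 with each library left out in turn. With libraries left out in turn the count ran from 4 to 6 for TXX-1-10 against vehicle and from 4 to 5 between the compounds, where DESeq2 put 1 gene past 2-fold, XIAP at 1.0005. The difference of BIRC6 between the compounds, 0.02 and not called, turned to -0.0261 with the length correction, to -0.0325 with that correction and the replicate block, to -0.14 in the fit that takes all genes from 8 libraries, without rimonabant replicate 1, and ran from -0.14 to 0.23 with libraries left out. That of CASP8, 0.01 and not called, ran from -0.0592 to 0.0935. Causes were not tested.

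Deviations of same-numbered libraries correlated at -0.05, 0.04 and 0.04 between vehicle and rimonabant and at -0.06, 0.01 and -0.07 between vehicle and TXX-1-10. Each compound has a library that stood apart, which enters the deviations of its group. These small values therefore cannot show whether vehicle was paired with either compound by replicate number. Between the compounds they were -0.79, 0.83 and -0.61. Rimonabant replicate 1 and TXX-1-10 replicate 3, which stood apart, enter the group means there, so those values cannot show whether the compounds were paired. With the replicate block 1 gene differed between rimonabant and vehicle, CASP8 no longer passing (-0.21, edgeR adjusted p = 0.0663).

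With 70 to 86 reads for DIABLO and 113 to 215 for CASP9, depth limits what can be seen for these 2 genes. For DIABLO the unknown counting of reads in shared bases is a further limit.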
